A study of Homo sapiens with 24 samples.

Results

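Heat shock proteins and cytosolic chaperones are the proteins that fold, hold and refold other proteins, and their transcripts were followed here as one gene family. Members were chosen by symbol: the HSP90, HSP70 (*HSPA*), HSP110 (*HSPH1*) and small heat shock protein (*HSPB*) genes, the J-domain genes (*DNAJA*, *DNAJB*, *DNAJC*), the subunits of the TRiC chaperonin (*TCP1*, *CCT*), prefoldin (*PFDN*) and the BAG genes. *HSPA5*, *HSPA9*, *DNAJB9* and *DNAJC19*, which serve the endoplasmic reticulum or mitochondria, were left out, although some members kept by the rule also work in those compartments. The rule found 92 of the 23106 genes counted.

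RNA-seq of polyadenylated RNA was performed in triplicate in 4 human cancer cell lines in normoxia (21% oxygen) and after 16 h in hypoxia (0.5% oxygen), giving 24 libraries and 8 groups of 3. The lines were A549 (lung) and PC3 (prostate), both grown in F12K medium, HCT116 (colorectum), grown in McCoy's 5a medium, and T47D (breast), grown in DMEM. The labels name no genetic change or drug. The study sought the direct targets of hypoxia-inducible factors in each line and those conserved across cell types. Each tissue is represented by 1 established line, so line and tissue cannot be told apart, nor can the medium except between A549 and PC3, and nothing states whether the 3 replicates were separate cultures, so that p-values measure the spread between these libraries.

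Total counts ranged from 22698584 to 62850747 per library. The hypoxia-inducible genes *CA9*, *NDRG1*, *EGLN3*, *ANKRD37*, *VEGFA* and *PDK1* were all upregulated in A549, HCT116 and T47D, and 5 of the 6 in PC3, where *PDK1* did not pass (log2 fold change 0.11 ± 0.12 SE). The calls of *ANKRD37* in T47D and of *EGLN3* in PC3 were lost in 4 and 2 of 6 fits that left out a library. Epithelial keratin *KRT8* was at 1169 CPM (reads per gene, scaled to library size) or more in every line in normoxia. Tissue markers were uneven: T47D had *PGR* at 709.6 CPM and *ESR1* at 186.1 CPM, PC3 had *HOXB13* at 77.5 CPM with *KLK3* listed at 0, HCT116 had *CDX2* at 11.8 CPM with *CDX1* and *VIL1* at 0, and in A549 the lung markers *NKX2-1*, *SFTPB*, *SFTPC* and *SFTA2* were all at or under 0.0401 CPM.

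HSP70 proteins bind exposed hydrophobic stretches of unfolded proteins in a cycle driven by ATP, J-domain proteins bring clients to HSP70 and start that cycle, and BAG proteins and HSP110 release the nucleotide. HSP90 receives late folding intermediates such as kinases and steroid receptors, while the ring-shaped TRiC chaperonin, fed by prefoldin, folds actin and tubulin. Heat shock factor 1 (HSF1) drives the inducible members through heat shock elements, whereas hypoxia acts mainly through hypoxia-inducible factors (HIF), which bind the motif known as the hypoxia response element.

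A gene was called upregulated or downregulated where edgeR's quasi-likelihood test gave a Benjamini-Hochberg adjusted p under 0.05 over all genes tested and a fold change over 1.2. Of the 92 members, 81 had counts high enough to be tested in at least 1 line and 71 in all 4. The other 11 were *DNAJA1P5*, *DNAJB3*, *DNAJB7*, *DNAJB8*, *HSP90AB4P*, *HSPA7*, *CCT8L2*, *HSPB2*, *HSPB3*, *HSPB7* and *HSPB9*, and 3 members had no count in any library.

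In A549, downregulation dominated. Of 77 members tested, 33 were downregulated (42.9%), against 17.8% of all genes tested, and 4 were upregulated (5.19%), against 17.6% of all genes. The median log2 fold change of the members was -0.33 and that of all genes -0.01. In HCT116, 26 of 76 members were downregulated (34.2%) against 27.0% of all genes, and 9 were upregulated (11.8%) against 23.3%, so the downregulated share lay close to the background. In PC3, 15 of 76 members were downregulated (19.7%) against 15.7% of all genes, and 12 were upregulated (15.8%) against 16.6%, both close to the background. In T47D, 10 of 78 members were downregulated (12.8%) against 6.69% of all genes, and 3 were upregulated (3.85%) against 6.55%.

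Several of these counts rested on single libraries. In T47D, leaving out normoxia replicate 1 left 0 upregulated and 0 downregulated members by edgeR, with 5 and 11 at an unadjusted p under 0.05, and only 1.26% and 0.133% of all genes upregulated and downregulated. Without T47D normoxia replicate 2 the edgeR counts were 0 and 3, with 5 and 19 at an unadjusted p under 0.05. The upregulated count was 1 without T47D hypoxia replicate 1 and 5 without hypoxia replicate 3. DESeq2, run on all 6 T47D libraries, called 5 and 11. The downregulated count in PC3 was 4, 3 and 7 without hypoxia replicate 1, 2 and 3 and 8 without normoxia replicate 1, and the upregulated count in HCT116 was 5 without hypoxia replicate 3. With the replicate number as a block, 5 members were upregulated in T47D. One fit of all 24 libraries, which share one estimate of the spread, called 20 downregulated in A549, 2 downregulated in PC3 and 6 upregulated in T47D. That fit ended the PC3 calls given below for *HSPA14*, *HSPB11*, *PFDN4*, *DNAJB14*, *DNAJC15*, *DNAJB1*, *CCT2*, *CCT6P1*, *CCT6P3*, *PFDN2*, *HSPA2* and *HSPA1B*. It also ended the A549 calls of *HSPA4*, *HSPA8*, *HSPB11*, *DNAJA1*, *DNAJB4*, *DNAJC4* and *TCP1*, the HCT116 call of *HSPA4L* and the T47D call of *HSPB8*. Of all member calls it kept 9 of 27 in PC3 and 23 of 37 in A549. Other PC3 and A549 calls were thus lost too and are not listed. They can include the TRiC subunits *CCT3*, *CCT4*, *CCT5*, *CCT6A*, *CCT7* and *CCT8* and members named below after their values were seen.

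The hypoxia effect over all genes moved with transcript length. Among all genes tested in HCT116, the median log2 fold change was -0.33 in the shortest tertile by length and 0.24 in the longest. In A549 these medians were -0.12 and 0.13, and 35 of the 77 members tested there fell in the shortest tertile. Downregulated in A549 were 19 of 35 members in the shortest tertile (23.4% of all genes), 8 of 26 in the middle (18.5%) and 6 of 16 in the longest (12.1%). After a correction of every library for GC content and transcript length, the members' counts were 4 upregulated and 24 downregulated in A549, 12 and 20 in HCT116, 16 and 6 in PC3 and 4 and 6 in T47D. The background shares in the corrected fits were 15.1% and 16.5% in A549, 19.1% and 20.4% in HCT116, 11.7% and 12.4% in PC3 and 6.87% and 6.16% in T47D. The corrected median of the members was -0.16 in A549, -0.00447 in HCT116, -0.00658 in PC3 and -0.02 in T47D. Scaling by total counts alone gave 10 upregulated and 20 downregulated members in PC3 and 2 and 15 in T47D.

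**Figure D1:**
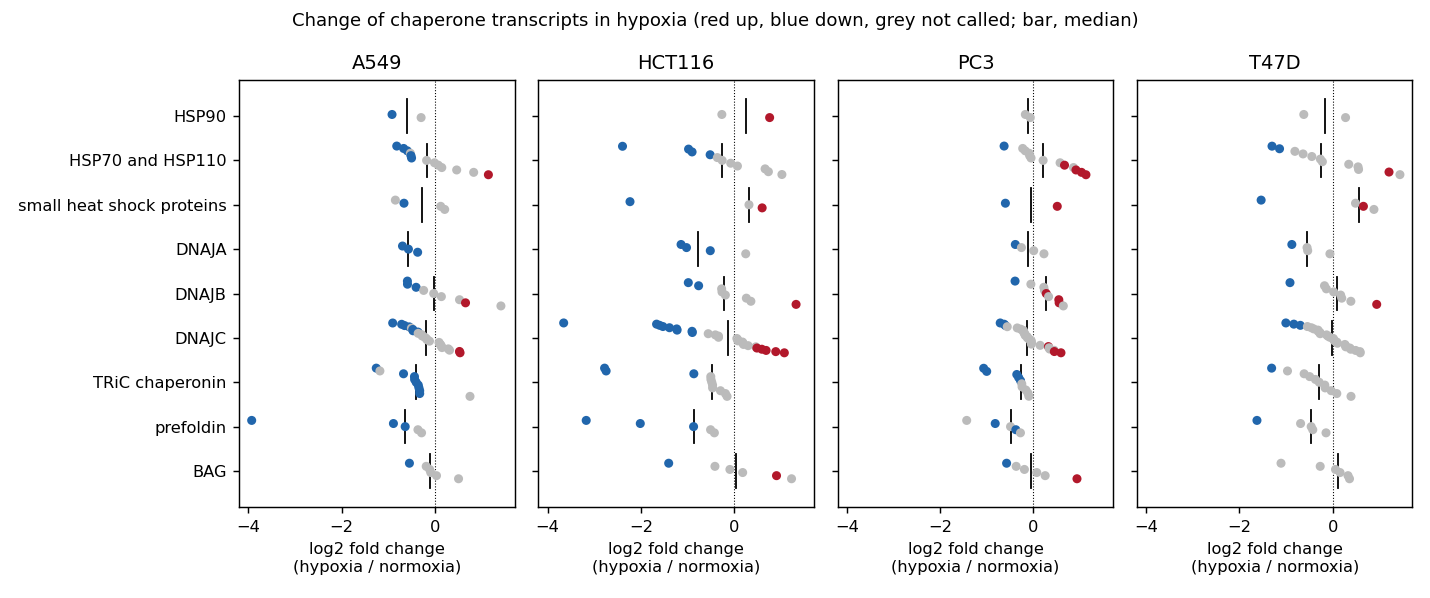
Log2 fold change (hypoxia over normoxia, horizontal axis) of every tested member by family in each line, with red points upregulated, blue points downregulated, grey points not called and a bar at each family's median. The blue points outnumber the red ones in all 4 lines, from 33 against 4 in A549 to 15 against 12 in PC3, before the correction for GC content and length.

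HSP90 is encoded by *HSP90AA1*, the inducible form, and *HSP90AB1*, the constitutive form, which share most of their clients. In A549, *HSP90AA1* was at 3362, 3756 and 3483 CPM in normoxia and at 1940, 1901 and 1765 CPM in hypoxia. The groups were well apart, and the log2 fold change was -0.92 ± 0.11 (SE, adjusted p = 0.000104, edgeR), called in all 6 fits that left out a library. In the other lines *HSP90AA1* was not called in the edgeR fit of each line, although the fit of all libraries called it in T47D (-0.54, adjusted p = 0.0308). Its log2 fold change was -0.26 ± 0.24 in HCT116, -0.17 ± 0.09 in PC3 and -0.62 ± 0.27 in T47D. *HSP90AB1* in HCT116 was at 4111, 2977 and 5112 CPM in normoxia and at 7117, 6960 and 6581 CPM in hypoxia. All 3 hypoxic libraries were above the normoxic ones, with a log2 fold change of 0.76 ± 0.26 (adjusted p = 0.0253), which was 0.0577, 0.0647 and 0.0584 without hypoxia replicate 1, 2 or 3. *HSP90AB1* was not called by edgeR elsewhere (-0.30 ± 0.11 in A549, -0.07 ± 0.10 in PC3 and 0.27 ± 0.29 in T47D), and its effect differed between the lines in the test of the interaction (adjusted p = 0.0429). In A549 *HSP90AB1* was called downregulated by DESeq2 (-0.29, adjusted p = 0.0424) and by edgeR with total counts (-0.41, adjusted p = 0.00755).

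The bases before 1 start site of each HSP90 gene are shown because they hold several heat shock element cores. The source listed 2 promoters for *HSP90AA1* and 3 for *HSP90AB1*. The window shown was picked from those with a heat shock core, so its matches do not describe every start site. The sequences are those of RefSeq on GRCh38.p14, 250 bases before the start, searched on both strands for the heat shock element core (GAANNTTC or TTCNNGAA) and the hypoxia response element core (ACGTG or GCGTG). Capitals mark every match, and neighbouring heat shock cores overlap.
HSP90AA1 promoter, chr14:102087045-102087294, minus strand: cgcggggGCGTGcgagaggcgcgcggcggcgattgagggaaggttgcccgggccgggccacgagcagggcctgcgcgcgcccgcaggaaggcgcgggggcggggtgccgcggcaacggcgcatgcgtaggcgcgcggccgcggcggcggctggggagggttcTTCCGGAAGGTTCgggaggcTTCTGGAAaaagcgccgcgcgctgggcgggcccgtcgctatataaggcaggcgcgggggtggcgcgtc
HSP90AB1 promoter, chr6:44247693-44247942, plus strand: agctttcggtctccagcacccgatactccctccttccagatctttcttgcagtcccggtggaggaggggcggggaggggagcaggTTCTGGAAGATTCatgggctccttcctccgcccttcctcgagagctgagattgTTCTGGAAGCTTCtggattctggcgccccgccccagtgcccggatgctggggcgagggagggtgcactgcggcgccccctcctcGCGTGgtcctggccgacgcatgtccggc
The *HSP90AA1* window held 3 heat shock cores and 1 hypoxia core, and the *HSP90AB1* window 4 and 1. The heat shock core stood in 25 of 96 member promoters (26.0%) and in 11.6% of all 35116 promoters of that length, and the hypoxia core in 55 of 96 (57.3%) and in 43.2% of all. These are matches of letters, and neither occupancy nor activity was measured.

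Among the HSP70 and HSP110 genes, 5 of 13 tested were downregulated in A549 (17.8% of all genes) and 4 of 11 in HCT116 (27.0% of all genes), while 4 of 13 were upregulated in PC3 (16.6% of all genes). *HSPA8*, the constitutive cytosolic HSP70, was at 2823, 2987 and 2760 CPM in normoxic A549 and 1755, 1933 and 2315 CPM in hypoxia, a log2 fold change of -0.51 ± 0.12 (adjusted p = 0.00673). In HCT116 it went from 3801, 3719 and 4113 CPM to 3000, 1052 and 1853 CPM (-0.98 ± 0.32, adjusted p = 0.0221). The hypoxic HCT116 libraries were all lower but spread widely, and the adjusted p was 0.0974 without hypoxia replicate 2, 0.0865 without hypoxia replicate 3, 0.0605 without normoxia replicate 1 and 0.0626 without normoxia replicate 3. After the correction for GC content and length *HSPA8* remained called in A549 (-0.39 ± 0.10, adjusted p = 0.0127) and missed the threshold in HCT116 (adjusted p = 0.0798). With the replicate block added to the correction, edgeR called *HSPA8* in HCT116 (-0.80, adjusted p = 0.00393). In PC3 and T47D it was not called by edgeR (-0.23 ± 0.12 and -0.81 ± 0.33), but in T47D it was called by DESeq2 (adjusted p = 0.0407) and by edgeR with total counts (-0.93, adjusted p = 0.04997).

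*HSPH1*, the HSP110 nucleotide exchange factor, was at 337, 345 and 345 CPM in normoxic A549 and 223, 204 and 219 CPM in hypoxia (-0.67 ± 0.10, adjusted p = 0.000567). In T47D it went from 124, 88.9 and 136 CPM to 55.3, 49.8 and 53.1 CPM (-1.14 ± 0.21, adjusted p = 0.00564, and 0.0608 without normoxia replicate 1). In PC3 its uncorrected log2 fold change was 0.21 ± 0.12, and its effect differed between the lines (adjusted p = 0.0256). After the correction for GC content and length the PC3 value of *HSPH1* was 0.34 and was called (adjusted p = 0.0455). The related *HSPA4* was downregulated in A549 (-0.50 ± 0.10, adjusted p = 0.00342) and not called in HCT116 (-0.26 ± 0.24), PC3 (-0.05 ± 0.08) or T47D (-0.22 ± 0.22). *HSPA4L* was downregulated in A549 (-0.59 ± 0.11, adjusted p = 0.00209) and in HCT116 (-0.52 ± 0.19, adjusted p = 0.0387). The HCT116 call of *HSPA4L* held in 1 of 6 fits that left out a library, with an adjusted p of 0.0936, 0.129 and 0.142 without hypoxia replicate 1, 2 and 3 and of 0.0620 and 0.245 without normoxia replicate 2 and 3, the last with a value of -0.30. It was also lost by DESeq2 (0.0554) and after the correction for GC content and length (-0.26, adjusted p = 0.309).

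*HSPA2*, an HSP70 best known from the testis, moved the other way. In A549 it was at 142, 98.4 and 136 CPM in normoxia and 279, 270 and 284 CPM in hypoxia (1.15 ± 0.14, adjusted p = 0.000135). In PC3 it went from 15.3, 17.9 and 11.9 CPM to 29.3, 22.8 and 19.8 CPM (0.67 ± 0.18, adjusted p = 0.0199). In T47D it went from 4.33, 4.03 and 8.18 CPM to 16.0, 12.1 and 10.1 CPM (1.21 ± 0.30, adjusted p = 0.0234). The groups did not overlap in these 3 lines, and the calls held after the correction for GC content and length (1.05, 0.56 and 1.08). The PC3 call was lost without hypoxia replicate 1 (adjusted p = 0.0769) or normoxia replicate 1 (0.0539), and the T47D call without hypoxia replicate 1 (0.0780), normoxia replicate 1 (0.166) or normoxia replicate 2 (0.116). In HCT116 the log2 fold change of 0.73 ± 0.31 missed the threshold (adjusted p = 0.0598), while DESeq2 (0.0324) and edgeR with RLE factors (0.0481), no filter (0.0208), the replicate block (0.0232) or all libraries in one fit (0.0167) called it upregulated. *HSPA12A*, a distant HSP70 relative, was upregulated in PC3 (0.91 ± 0.23, adjusted p = 0.0147) from 1.46 to 2.71 CPM. In T47D *HSPA12A* had a log2 fold change of -0.64 ± 0.27, not called as such but called with the replicate block (-0.67, adjusted p = 0.0357), in the fit of all libraries (-0.55, adjusted p = 0.0369) and after the correction for GC content and length (-0.85, adjusted p = 0.0369), and its effect differed between lines (adjusted p = 0.00660).

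The stress-inducible pair *HSPA1A* and *HSPA1B* was upregulated in PC3, from 3.90, 7.40 and 5.40 to 12, 12.3 and 12.6 CPM for *HSPA1A* (1.12 ± 0.20, adjusted p = 0.00457) and from 5.48, 6.46 and 5.78 to 14, 10.2 and 12.1 CPM for *HSPA1B* (1.03 ± 0.15, adjusted p = 0.00256). Both calls held in all 6 fits that left out a library, but that of *HSPA1B* was lost in the fit of all libraries (1.08, adjusted p = 0.0653). In the edgeR fits of the other lines neither was called, with log2 fold changes from 0.07 ± 0.19 (*HSPA1B*, A549) to 1.02 ± 0.68 (*HSPA1A*, HCT116), although in HCT116 *HSPA1B* was called without a filter (adjusted p = 0.0180) and *HSPA1A* in the fit of all libraries (0.0440). The 2 genes are nearly identical in sequence, and reads that map to more than 1 place had been removed. They lie, with *HSPA1L*, *BAG6* and *PFDN6*, in the interval of chromosome 6 that holds the major histocompatibility complex, in which the median level of 135 protein-coding genes was 0.153 CPM, against 7.69 CPM for the 833 others of the chromosome. The part of the mapping in these levels was not tested, and the levels of these 5 members are not compared with other genes here. *HSPA6*, a strictly inducible HSP70, was at 1.19 CPM or less in the group means of every line, and in T47D its log2 fold change was 1.44 ± 0.46 (adjusted p = 0.0535), and 1.4 with the replicate block, where it passed (adjusted p = 0.0415).

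*HSPA14*, the ribosome-associated HSP70, was downregulated in all 4 lines. It lies on chromosome 10 (14880305 to 14913740, plus strand, GRCh37, 14 exons). In HCT116 it was at 116, 158 and 75.2 CPM in normoxia and 28.3, 18.3 and 19.8 CPM in hypoxia (-2.39 ± 0.28, adjusted p = 8.98e-05). In A549 it went from 62.4, 71.0 and 53.1 CPM to 32.1, 34.8 and 38.9 CPM (-0.82 ± 0.13, adjusted p = 0.000733). In T47D it went from 97.4, 93.3 and 55.2 CPM to 34.9, 25.4 and 39.3 CPM (-1.30 ± 0.25, adjusted p = 0.00743). In PC3 it went from 36.1, 31.9 and 59.6 CPM to 27.6, 27.2 and 27.6 CPM (-0.63 ± 0.20, adjusted p = 0.0350). No hypoxic library reached a normoxic one of its own line, and the fall in HCT116 exceeded the mean of the other lines by -1.40 ± 0.28 on the log2 scale (adjusted p = 0.00182). After the correction for GC content and length it remained called in A549 (-0.47), HCT116 (-1.50) and T47D (-0.93) but not in PC3 (-0.25 ± 0.13, adjusted p = 0.182). The PC3 call was also lost without any of the hypoxia replicates (adjusted p from 0.0804 to 0.0951), and the PC3 value was -0.31, still called, without normoxia replicate 3. The T47D call was lost without normoxia replicate 1 (0.0859) or 2 (0.0548). Its partner in that complex, *DNAJC2*, was downregulated in A549 (-0.91 ± 0.16, adjusted p = 0.00140) and PC3 (-0.63 ± 0.12, adjusted p = 0.00544) and not called in HCT116 (0.08 ± 0.19) or T47D (-0.32 ± 0.19), a difference between lines that passed the test (adjusted p = 0.0102). After the correction *DNAJC2* was called upregulated in HCT116 (0.87, adjusted p = 0.00657) and lost its call in PC3 (-0.33, adjusted p = 0.117). Of the *DNAJC2* exon bases, 22.3% overlap *PMPCB* on the opposite strand, and the strand setting of the counting is not given, so its counts are uncertain.

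**Figure D2:**
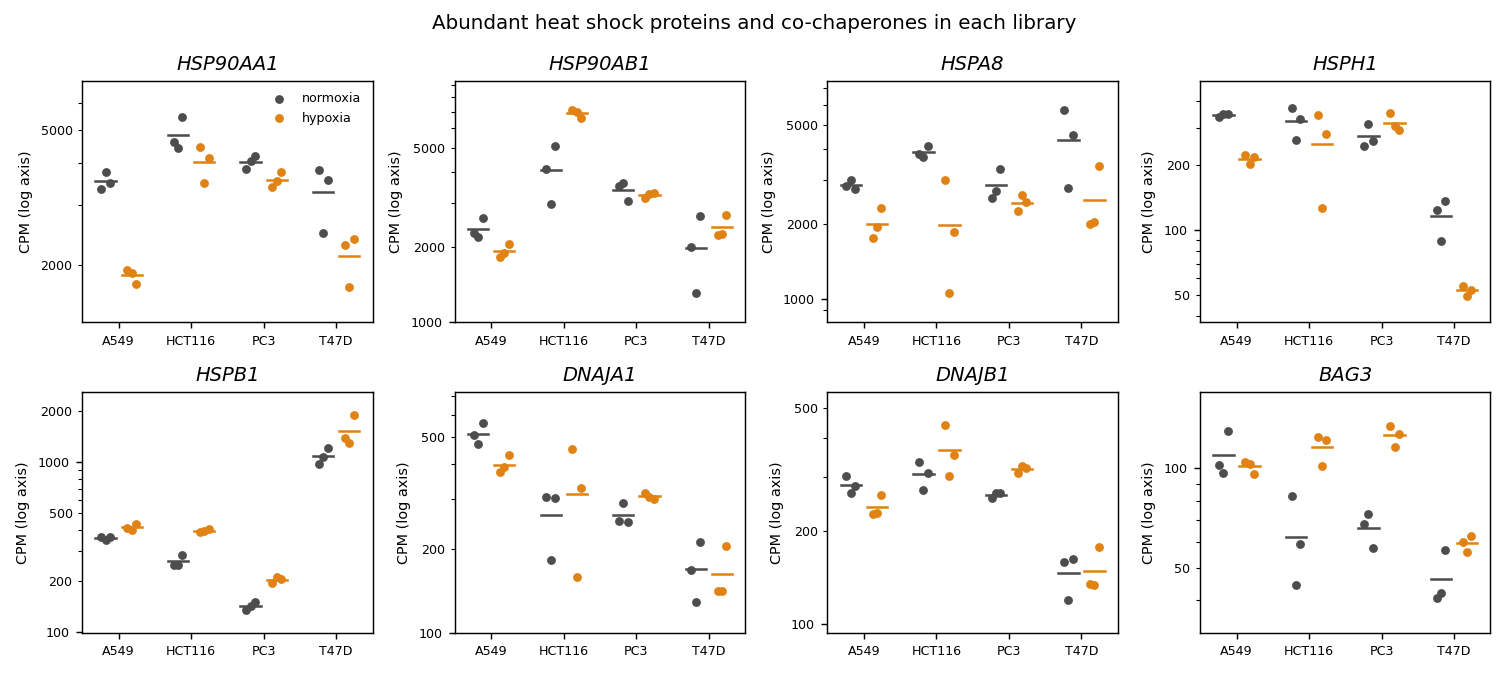
Level in each library (CPM, log axis) of 8 abundant heat shock proteins and co-chaperones, grey for normoxia and orange for hypoxia, with a bar at the mean of 3. *HSP90AA1* and *HSPH1* are lower in all hypoxic A549 libraries, *HSP90AB1* is higher in all hypoxic HCT116 libraries, and *BAG3* is higher in hypoxia in HCT116 and PC3.

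Small heat shock proteins hold unfolded clients without using ATP, and 4 of the 8 were tested in some line. *HSPB1* (HSP27) was upregulated in HCT116, from 250, 248 and 286 to 388, 392 and 406 CPM (0.60 ± 0.19, adjusted p = 0.0196), and in PC3, from 136, 143 and 151 to 196, 211 and 206 CPM (0.51 ± 0.09, adjusted p = 0.00411). The HCT116 call was lost without hypoxia replicate 2 (adjusted p = 0.0582) or 3 (0.0789). In A549 and T47D the hypoxic *HSPB1* libraries were also above all normoxic ones, but the log2 fold changes of 0.21 ± 0.10 and 0.49 ± 0.25 did not pass in the fit of each line, and in T47D passed in the fit of all libraries (0.56, adjusted p = 0.00833). *HSPB8*, the partner of BAG3 in selective autophagy, was upregulated in T47D from 37.6, 38.4 and 39.7 to 64.3, 60.6 and 57.6 CPM (0.66 ± 0.18, adjusted p = 0.0319), a call lost without hypoxia replicate 1 or 2 or normoxia replicate 1 or 2 (adjusted p from 0.103 to 0.154). *HSPB8* was not tested in PC3 for lack of counts.

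*HSPB11*, grouped here by symbol and known as the intraflagellar transport protein IFT25, was downregulated in all 4 lines. In HCT116 it went from 75.2, 116 and 52.3 to 19.8, 15.6 and 16.5 CPM (-2.23 ± 0.27, adjusted p = 0.000101), and in T47D from 85.9, 107 and 66.5 to 26.0, 19.2 and 44.3 CPM (-1.54 ± 0.29, adjusted p = 0.00680). The falls were smaller in A549 (-0.66 ± 0.16, adjusted p = 0.00676) and PC3 (-0.60 ± 0.17, adjusted p = 0.0218), and the lines differed (adjusted p = 0.0105). Its canonical transcript is 685 bases long, and after the correction for GC content and length it remained called in HCT116 (-1.0) and T47D (-1.08) and not in A549 (-0.32, adjusted p = 0.0710) or PC3 (-0.16, adjusted p = 0.231). With the replicate block added to the correction, edgeR called *HSPB11* in A549 (-0.32, adjusted p = 0.0268). The PC3 call was lost without any of the hypoxia replicates (adjusted p from 0.0517 to 0.0793) and its value was -0.37 without normoxia replicate 3, and the T47D call without normoxia replicate 1 (0.0728) or 2 (0.0553).

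J-domain proteins gave the one member upregulated in all 4 lines, *DNAJB2*. It encodes a J-domain protein with ubiquitin-interacting motifs that passes clients to the proteasome, and lies on chromosome 2 (220144064 to 220151620, plus strand, GRCh37, 9 exons). In HCT116 it was at 19.5, 17.6 and 21.8 CPM in normoxia and 38.8, 61.2 and 48.0 CPM in hypoxia (1.33 ± 0.21, adjusted p = 0.000293). In T47D it went from 49.5, 57.7 and 69.4 to 104, 105 and 130 CPM (0.94 ± 0.20, adjusted p = 0.0131). In A549 it went from 44.9, 44 and 44.9 to 73.2, 67.3 and 70.5 CPM (0.66 ± 0.10, adjusted p = 0.000594). In PC3 it went from 67.7, 76.1 and 65.3 to 102, 97.4 and 105 CPM (0.54 ± 0.09, adjusted p = 0.00406). The groups did not overlap in any line, and the size of the rise differed between lines (adjusted p = 0.0332). *DNAJB2* was also upregulated in all 4 lines after the correction for GC content and length, by 0.42 in A549, 0.85 in HCT116, 0.30 in PC3 and 0.66 in T47D. It held in every fit that left out a library in A549, HCT116 and PC3, and in T47D it was lost without normoxia replicate 1 (adjusted p = 0.118) or 2 (0.0731). Of all genes tested in 4 lines, 2.58% were upregulated in every line, against 1 of the 71 members.

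Downregulation in all 4 lines was called for 6 of the 71 members, against 3.36% of all genes tested in 4 lines. These were *HSPA14*, *HSPB11*, *PFDN4*, *DNAJB14*, *DNAJC24* and *CCT6P1*, of which *DNAJC24* alone was also called in all 4 lines in the fit of all libraries. *DNAJB14*, a J-domain protein anchored in the endoplasmic reticulum membrane, went from 68.2, 77.4 and 68.3 to 31.7, 37.7 and 38.8 CPM in HCT116 (-0.98 ± 0.18, adjusted p = 0.000806). Its log2 fold change was -0.59 ± 0.12 in A549 (adjusted p = 0.00387), -0.39 ± 0.11 in PC3 (0.0261) and -0.92 ± 0.23 in T47D (0.0220). None of the *DNAJB14* calls held after the correction for GC content and length, which gave -0.29, -0.17, -0.05 and -0.54 in A549, HCT116, PC3 and T47D (adjusted p from 0.0577 to 0.769 in edgeR). With the replicate block added to the correction, *DNAJB14* was called in T47D (-0.52, adjusted p = 0.0287) and in A549 (-0.28, adjusted p = 0.0473). The PC3 call was lost without any hypoxia replicate or without normoxia replicate 1 (adjusted p from 0.0590 to 0.104), and the T47D call without normoxia replicate 1 (0.154). *DNAJC24*, which serves diphthamide synthesis on elongation factor 2, had log2 fold changes of -0.71 ± 0.15 in A549, -1.53 ± 0.23 in HCT116, -0.71 ± 0.14 in PC3 and -0.83 ± 0.23 in T47D. It remained called after the correction in A549 (-0.38), HCT116 (-0.65) and PC3 (-0.37) but not in T47D (-0.45, adjusted p = 0.153). Its T47D call was lost without hypoxia replicate 1 (0.0558) or 2 (0.0819) or normoxia replicate 1 (0.188) or 2 (0.148). Of the *DNAJC24* exon bases, 5.66% overlap *IMMP1L* on the opposite strand.

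The windows before the start of *DNAJB2*, upregulated in every line, and *PFDN4*, downregulated in every line, are shown as a pair with opposite responses, from the same table and build. Neither holds any of the searched cores, so there are no capitals.
DNAJB2 promoter, chr2:219279116-219279365, plus strand: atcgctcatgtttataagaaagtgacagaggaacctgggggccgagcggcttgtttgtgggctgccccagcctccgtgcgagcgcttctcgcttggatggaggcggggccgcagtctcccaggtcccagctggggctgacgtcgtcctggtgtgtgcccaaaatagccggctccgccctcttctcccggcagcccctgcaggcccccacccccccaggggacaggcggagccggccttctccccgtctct
PFDN4 promoter, chr20:54207837-54208086, plus strand: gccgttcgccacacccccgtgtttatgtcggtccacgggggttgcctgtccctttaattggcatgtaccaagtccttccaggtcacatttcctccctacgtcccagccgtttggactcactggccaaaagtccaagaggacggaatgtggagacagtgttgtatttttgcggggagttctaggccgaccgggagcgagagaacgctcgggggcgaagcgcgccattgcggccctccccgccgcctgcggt
The absence of a match says only that these letters are not in these 250 bases.

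**Figure D3:**
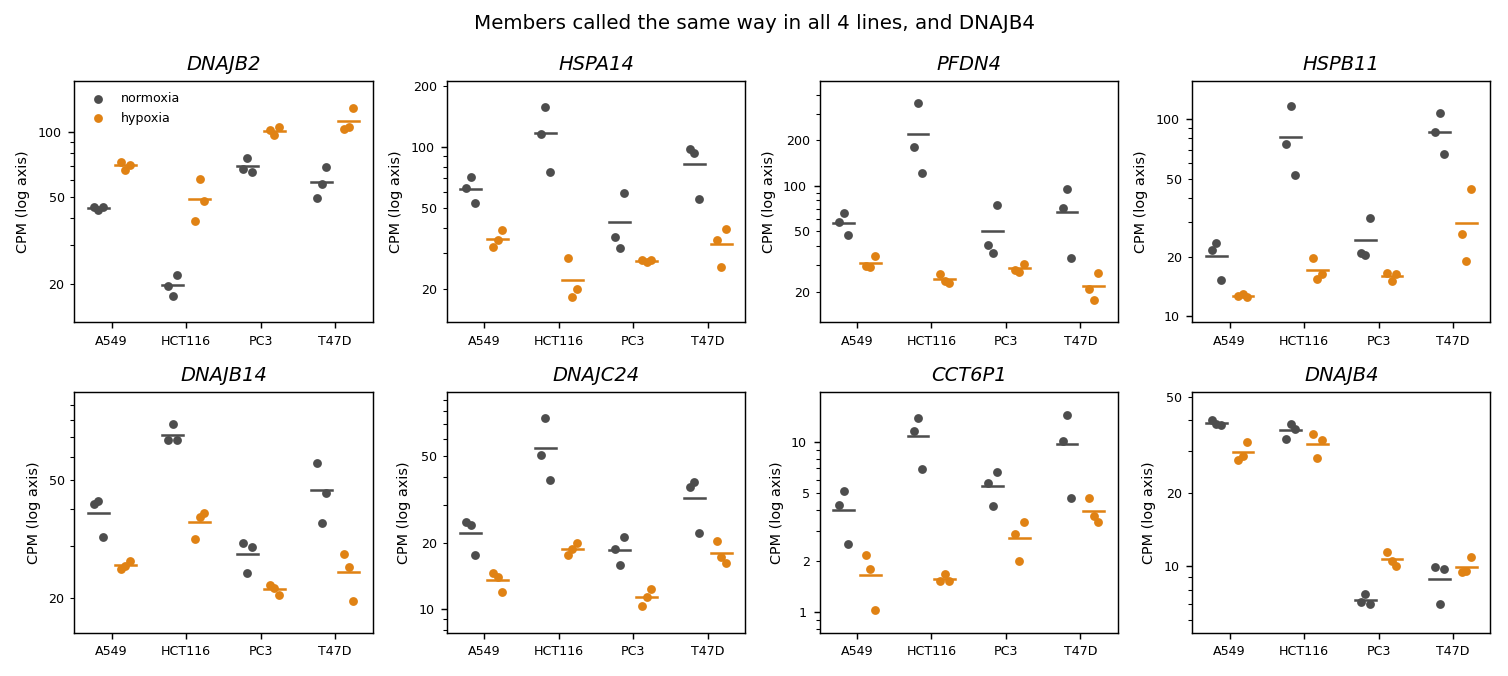
Level in each library (CPM, log axis) of the 7 members called the same way in all 4 lines and of *DNAJB4*, grey for normoxia and orange for hypoxia, with a bar at the mean of 3. *DNAJB2* is higher in every hypoxic group, and the normoxic HCT116 libraries of *PFDN4* spread from 121 to 353 CPM.

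Among the other class A and B J-domain genes, *DNAJB4* was downregulated in A549 and upregulated in PC3, the one member called in opposite directions, against 1.14% of all genes. In A549 it went from 40.1, 38.8 and 38.4 to 27.5, 28.5 and 32.7 CPM (-0.40 ± 0.11, adjusted p = 0.0124), and in PC3 from 7.11, 7.70 and 7.02 to 11.5, 10.5 and 10.1 CPM (0.55 ± 0.13, adjusted p = 0.0116). The lines differed (adjusted p = 0.0104), but after the correction for GC content and length *DNAJB4* was at 0.07 ± 0.10 in A549 (adjusted p = 0.589), 1.06 ± 0.17 in PC3 and 1.02 ± 0.18 in HCT116 (adjusted p = 0.000741). In T47D it was at 0.67 after the correction (adjusted p = 0.0545), and was called upregulated with the block added (0.69, adjusted p = 0.0198). The HCT116 value before that correction was -0.19 ± 0.18, and the A549 call was lost without hypoxia replicate 1 (adjusted p = 0.0525) or 2 (0.0725) or normoxia replicate 1 (0.0503). *DNAJB1* (HSP40), the main J-domain partner of inducible HSP70, was upregulated in PC3 from 257, 265 and 266 to 308, 325 and 320 CPM (0.27 ± 0.08, adjusted p = 0.0329), and this call held in 2 of 6 fits that left out a library, being lost without any hypoxia replicate or without normoxia replicate 1 (adjusted p from 0.0709 to 0.135), while after the correction its 0.24 was under the fold threshold. Elsewhere *DNAJB1* was at -0.24 ± 0.11 in A549, 0.26 ± 0.21 in HCT116 and 0.02 ± 0.21 in T47D, and the fit of all libraries called it upregulated in HCT116 (0.38, adjusted p = 0.0456). *DNAJA1*, its class A counterpart, was downregulated in A549 from 509, 475 and 563 to 376, 391 and 431 CPM (-0.37 ± 0.11, adjusted p = 0.0225), lost without hypoxia replicate 1 (0.0837) or 2 (0.114) or normoxia replicate 1 (0.0660), and was not called in HCT116 (0.25 ± 0.33), PC3 (0.22 ± 0.09) or T47D (-0.06 ± 0.24). After the correction for GC content and length *DNAJA1* was at -0.11 in A549 (adjusted p = 0.482) and was called upregulated in HCT116 (0.93, adjusted p = 0.0413) and PC3 (0.49, adjusted p = 0.0111). *DNAJA4* was downregulated in the lines where it was abundant, from 81.1 to 40.0 CPM in HCT116 (-1.02 ± 0.25, adjusted p = 0.00501) and from 66.5 to 36.2 CPM in T47D (-0.88 ± 0.18, adjusted p = 0.0107). The T47D call of *DNAJA4* was lost without normoxia replicate 1 (0.0533) or 2 (0.0545).

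The 27 class C J-domain genes have the most varied duties. *DNAJC5*, the cysteine string protein of exocytosis, was upregulated in A549 (0.54 ± 0.12, adjusted p = 0.00481), HCT116 (1.08 ± 0.22, adjusted p = 0.00136) and PC3 (0.59 ± 0.13, adjusted p = 0.00921). In T47D the hypoxic libraries of *DNAJC5* (166, 173 and 183 CPM) were above the normoxic ones (97.9, 116 and 133 CPM), and the log2 fold change of 0.59 ± 0.20 did not pass in edgeR (adjusted p = 0.0670) but passed with the replicate block (0.0407), by DESeq2 (0.0302) and in the fit of all libraries (0.00765). After the correction for GC content and length *DNAJC5* remained called in PC3 (0.28) but not in A549 (0.22, adjusted p = 0.113) or HCT116 (0.43, adjusted p = 0.0672). With the replicate block added to the correction, edgeR called *DNAJC5* in HCT116 (0.43, adjusted p = 0.0336). *DNAJC4* was upregulated in A549 (0.53 ± 0.15, adjusted p = 0.0182, and 0.0763 without normoxia replicate 2) and in HCT116 (0.89 ± 0.25, adjusted p = 0.00938). *DNAJC10*, the disulfide reductase ERdj5 of the endoplasmic reticulum, had the smallest interaction p among the members (adjusted p = 0.000517). It went from 135, 167 and 108 to 47.2, 44.3 and 44 CPM in HCT116 (-1.60 ± 0.20, adjusted p = 0.000131), while in PC3 the means were 218.4 CPM in normoxia and 199.7 CPM in hypoxia (-0.13 ± 0.08, not called). In T47D *DNAJC10* was downregulated (-0.70 ± 0.21, adjusted p = 0.0469), but this call held in 1 of 6 fits that left out a library, being lost without any hypoxia replicate or without normoxia replicate 1 or 3 (adjusted p from 0.0549 to 0.211), and was lost after the correction for GC content and length (-0.40, adjusted p = 0.352), which gave a call in A549 (-0.36, adjusted p = 0.0175). *DNAJC15*, a J-domain protein of mitochondrial protein import, was downregulated in HCT116 (-1.39 ± 0.23, adjusted p = 0.000374), PC3 (-0.60 ± 0.17, 0.0213) and T47D (-1.01 ± 0.23, 0.0176), and in A549 had at most 7 counts in any library. The PC3 call of *DNAJC15* was lost without hypoxia replicate 1 (0.0740) or 2 (0.0546) and its value was -0.39 without normoxia replicate 3, and the T47D call without hypoxia replicate 1 (0.0657) or 2 (0.0552) or normoxia replicate 1 (0.113) or 2 (0.0945) or after the correction (0.113), where adding the replicate block restored it (-0.83, adjusted p = 0.0396).

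TRiC is built from 8 subunits, and in A549 all 8 (*TCP1*, *CCT2*, *CCT3*, *CCT4*, *CCT5*, *CCT6A*, *CCT7* and *CCT8*) were downregulated, with log2 fold changes between -0.67 and -0.33. The summed level of the 8 transcripts in A549 was 5357, 5533 and 5179 CPM in normoxia and 3674, 3992 and 4433 CPM in hypoxia. The hypoxic sums were all below the normoxic ones. In HCT116 1 of 8 was downregulated by edgeR and 3 by DESeq2, and in PC3 3 of 8 by each. In T47D none passed by edgeR or DESeq2, and 1 had an unadjusted p under 0.05. Of all genes tested by edgeR, 17.8% were downregulated in A549, 27.0% in HCT116, 15.7% in PC3 and 6.69% in T47D. The edgeR counts of TRiC subunits in HCT116 and T47D were below those shares. *CCT2* went from 635, 715 and 600 to 349, 424 and 451 CPM in A549 (-0.67 ± 0.12, adjusted p = 0.00191). It was also downregulated in HCT116 (-0.87 ± 0.23, adjusted p = 0.00658, and 0.0672 without hypoxia replicate 3) and in PC3 (-0.36 ± 0.10, adjusted p = 0.0204). The PC3 call of *CCT2* was lost without any hypoxia replicate or without normoxia replicate 1 (adjusted p from 0.0531 to 0.0732), and in T47D it was at -0.61 ± 0.25, called with total counts (-0.73, adjusted p = 0.0431) or all libraries in one fit (-0.54, adjusted p = 0.0339). After the correction *CCT2* was at -0.20 in HCT116 (adjusted p = 0.433) and -0.08 in PC3 (adjusted p = 0.410), neither called. *TCP1* was downregulated in A549 from 473, 504 and 463 to 357, 379 and 412 CPM (-0.33 ± 0.11, adjusted p = 0.0311). That call was lost without hypoxia replicate 1 or 2 or normoxia replicate 1 or 2 (adjusted p from 0.0875 to 0.140), and 19.3% of its exon bases overlap *ACAT2* on the opposite strand. After the correction for GC content and length, *CCT2* (-0.41), *CCT3* (-0.39), *CCT5* (-0.37) and *CCT7* (-0.28) remained downregulated in A549. *CCT4* (-0.16), *CCT6A* (-0.22), *CCT8* (-0.05) and *TCP1* (-0.12) were no longer called. In HCT116 and PC3 no subunit was called downregulated after the correction, and *CCT8* was called upregulated in HCT116 (0.49, adjusted p = 0.0493, edgeR). The other corrected HCT116 values lay between -0.38 (*CCT3*) and 0.29 (*CCT6A*), none called. In PC3 the call of *CCT6A* (-0.28 ± 0.08) was lost with the replicate block (adjusted p = 0.0507).

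2 pseudogene transcripts of *CCT6A* are among the members, *CCT6P1* and *CCT6P3*, and reads shared with their parent gene make their counts uncertain. *CCT6P1* went from 11.6, 13.9 and 6.97 to 1.52, 1.67 and 1.53 CPM in HCT116 (-2.78 ± 0.30, adjusted p = 5.73e-05). It was also downregulated in A549 (-1.26 ± 0.32), PC3 (-1.0 ± 0.24) and T47D (-1.31 ± 0.36). The call of *CCT6P1* was lost without A549 normoxia replicate 2 (adjusted p = 0.0540), PC3 hypoxia replicate 2 (0.0512), T47D normoxia replicate 1 (0.165) or T47D normoxia replicate 2 (0.170), and in T47D after the correction (0.0992), where adding the replicate block restored it (-0.90, adjusted p = 0.0278). *CCT6P3* was downregulated in HCT116 (-2.75 ± 0.46, adjusted p = 0.000438) and in PC3 (-1.07 ± 0.32, adjusted p = 0.0308), the latter held in 1 of 6 fits that left out a library, being lost without any hypoxia replicate or without normoxia replicate 1 or 3 (adjusted p from 0.0542 to 0.112), and lost after the correction (0.0686). With the replicate block edgeR also called *CCT6P3* downregulated in A549 (-1.28, adjusted p = 0.0220). *CCT6B*, the testis form of subunit 6, was not called in any line, with log2 fold changes of 0.75 ± 0.31 in A549, -0.48 ± 0.43 in HCT116 and 0.39 ± 0.25 in T47D, but after the correction it was called upregulated in A549 (1.12, adjusted p = 0.0193) and T47D (0.78, adjusted p = 0.0353).

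Prefoldin hands actin and tubulin to TRiC. *PFDN4* (chromosome 20, 52824626 to 52844591, plus strand, GRCh37, 4 exons) fell in HCT116 from 181, 353 and 121 to 26.1, 23.6 and 22.9 CPM (-3.17 ± 0.33, adjusted p = 5.29e-05). In T47D it went from 71.8, 94.6 and 33.4 to 20.7, 17.5 and 26.5 CPM (-1.63 ± 0.32, adjusted p = 0.00794). In A549 it went from 57.9, 66.4 and 47.1 to 29.5, 28.9 and 34.2 CPM (-0.89 ± 0.13, adjusted p = 0.000615). In PC3 it went from 40.8, 35.9 and 74.4 to 27.9, 27.1 and 30.5 CPM (-0.82 ± 0.23, adjusted p = 0.0229). The highest normoxic library of *PFDN4* was replicate 2 in HCT116, A549 and T47D and replicate 3 in PC3, and in HCT116, A549 and PC3 the same library was highest for *HSPA14* and *HSPB11*. The fall in HCT116 exceeded the mean of the other lines by -1.98 ± 0.36 on the log2 scale (adjusted p = 0.000941). *PFDN4* has a GC content of 30.7%, and after the correction for GC content and length it was called in HCT116 (-1.2 ± 0.21, adjusted p = 0.000862) and not in A549 (-0.13 ± 0.09), PC3 (0.07 ± 0.08) or T47D (-0.82 ± 0.27, adjusted p = 0.0726). With the replicate block added to the correction it was called in T47D (-0.72, adjusted p = 0.0447). The PC3 call was also lost without hypoxia replicate 1 (0.0732) or 2 (0.0744) and the T47D call without normoxia replicate 1 (0.0862) or 2 (0.0636), and the PC3 value was -0.43, still called, without normoxia replicate 3.

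*PFDN2* was downregulated in A549 from 75.9, 83.3 and 73.8 to 44.8, 53.5 and 51.6 CPM (-0.64 ± 0.11, adjusted p = 0.00134) and in PC3 (-0.38 ± 0.11, adjusted p = 0.0260). The PC3 call was lost without hypoxia replicate 1 (0.0979) or 2 (0.0619) or normoxia replicate 1 (0.0538), and after the correction (-0.11, adjusted p = 0.499). In HCT116 *PFDN2* was called downregulated by edgeR with the replicate block (-0.48, adjusted p = 0.0402). After the correction its HCT116 value was above 0 and not called (0.409, adjusted p = 0.0654, and 0.407, adjusted p = 0.0509, with the block added). *PFDN5*, named after its values were seen, was downregulated in HCT116 from 384.8 to 95.3 CPM (-2.01 ± 0.32, adjusted p = 0.000292), and in PC3 it passed with the replicate block (-0.44, adjusted p = 0.0408) but not without it. *PFDN6* was called in A549 (-3.93 ± 1.01, adjusted p = 0.0106) on the strength of 1 library. It was at 0.557, 1.24 and 16.6 CPM in normoxia and 0.358, 0.547 and 0.301 CPM in hypoxia, and without normoxia replicate 3 its log2 fold change was -1.16 (adjusted p = 0.0979).

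BAG proteins couple HSP70 to other fates. *BAG3*, which directs clients to autophagy, was upregulated in HCT116 from 82.3, 44.4 and 59.2 to 125, 102 and 122 CPM (0.91 ± 0.23, adjusted p = 0.00556). In PC3 it went from 67.7, 72.7 and 57.5 to 134, 116 and 128 CPM (0.93 ± 0.11, adjusted p = 0.00103). Both calls held in every fit that left out a library, with values from 0.78 to 1.22 in HCT116, and after the correction for GC content and length (0.68 and 0.79). In A549 *BAG3* was at 102, 96.7 and 130 CPM in normoxia and 105, 104 and 96.2 CPM in hypoxia, overlapping groups with a log2 fold change of -0.11 ± 0.13. In T47D it was at 0.36 ± 0.20, and the difference between lines passed (adjusted p = 0.00920), with A549 below the mean of the others by -0.92 ± 0.21 on the log2 scale (adjusted p = 0.0262). *BAG2*, an inhibitor of the ubiquitin ligase that marks HSP70 clients and named after its values were seen, was downregulated in A549 (-0.55 ± 0.12), HCT116 (-1.40 ± 0.24) and PC3 (-0.58 ± 0.13). Of its exon bases, 42.7% overlap *RAB23* on the opposite strand.

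A few further members were named after their values were seen. *DNAJC3*, an inhibitor of the kinase PERK in the endoplasmic reticulum, was upregulated in HCT116 (0.49 ± 0.19, adjusted p = 0.0442) and PC3 (0.32 ± 0.10, adjusted p = 0.0350). *DNAJC13*, an endosomal J-domain protein, was upregulated in the same lines (0.59 ± 0.23 and 0.45 ± 0.13). *DNAJA2*, a cytosolic class A protein, was downregulated in A549 (-0.57 ± 0.10), HCT116 (-1.14 ± 0.20) and PC3 (-0.39 ± 0.10), and after the correction for GC content and length was no longer called in PC3 (-0.14). *HSPA13*, an HSP70 of the endoplasmic reticulum, was downregulated in HCT116 (-0.90 ± 0.21, adjusted p = 0.00326) and at 0.08 there after the correction. By family, 7 of 24 class C genes were downregulated in A549 (17.8% of all genes), 9 of 26 in HCT116 (27.0%), 3 of 25 in PC3 (15.7%) and 3 of 26 in T47D (6.69%). Upregulated class C genes numbered 2 in A549 (17.6% of all genes), 5 in HCT116 (23.3%), 3 in PC3 (16.6%) and 0 in T47D (6.55%) by edgeR, where 5 of the class had an unadjusted p under 0.05 in either direction and DESeq2 called 4. Of the class A genes, 3 of 3 were downregulated in A549, 3 of 4 in HCT116, 1 of 4 in PC3 and 1 of 4 in T47D, against the same shares of all genes.

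**Figure D4:**
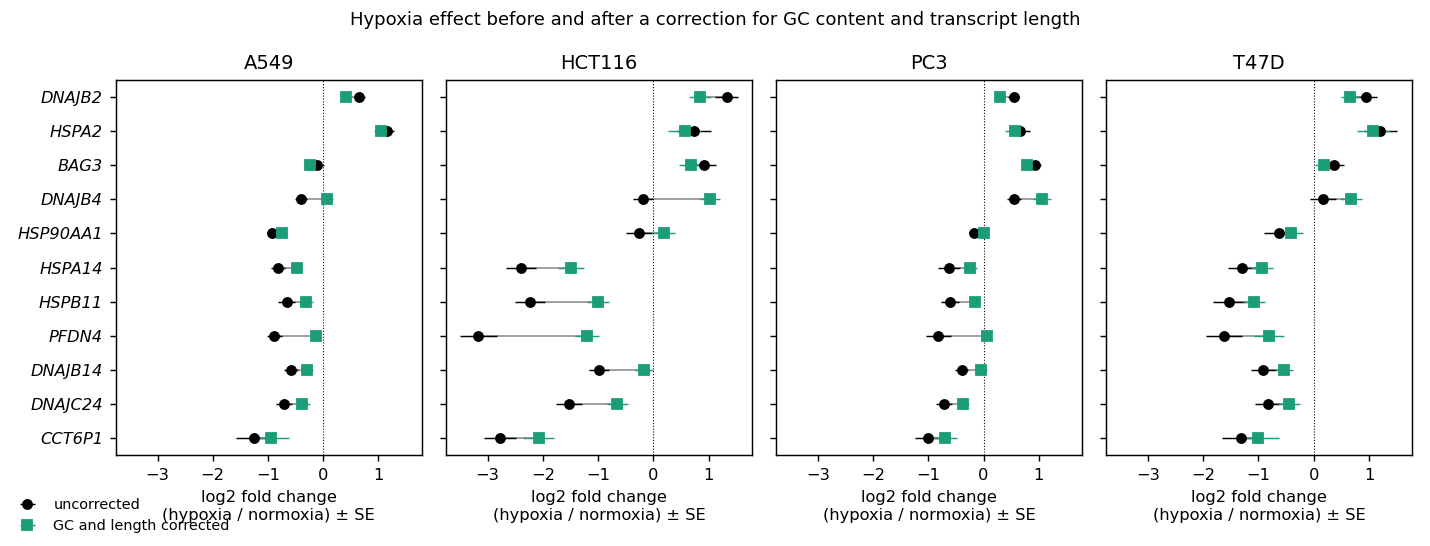
Log2 fold change with its SE (horizontal axis) of 11 members in each line before (black circles) and after (green squares) the correction for GC content and transcript length. *DNAJB2* stays above 0 in all lines, *DNAJB4* shifts upward in all, and *PFDN4* moves to 0.07 in PC3 and to -1.2 in HCT116.

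Over all members, the effect of hypoxia differed between lines for 17 of 82 tested (F test of the interaction in one fit of 24 libraries), against 18.3% of all genes. The number was 2 with replicate 1 of every group left out and 2 with replicate 2 left out. In normoxia, 56 of 81 members differed between lines with a highest mean over 2 times the lowest, against 79.9% of all genes. Per kilobase of transcript, *HSPA8* led in A549, HCT116 and T47D (1393, 1790 and 1792 CPM per kb) and *HSP90AB1* in PC3 (1342 CPM per kb), and *HSPA8* and both HSP90 genes were among the first 4 everywhere.

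The largest normoxic differences were in less abundant members. *DNAJA4* was at 108, 82.4 and 61.1 CPM in HCT116 and at 0.123, 0.187 and 0.113 CPM in A549, a ratio of means of 595.5 (adjusted p = 3.98e-13). *DNAJA4* in T47D (62.1 CPM ± 7.46 SD, n = 3) and in HCT116 (83.9 ± 23.6) overlapped. *DNAJC15* was at 35.3 CPM ± 8.77 in HCT116, 30.4 ± 3.81 in T47D, 19.1 ± 4.14 in PC3 and 0.0703 ± 0.0564 in A549, with the first 2 overlapping. *HSPB8* was at 36.0 CPM ± 2.21 in T47D, 19.7 ± 1.90 in A549 and 3.07 ± 1.2 in HCT116, and in PC3 had at most 1 count in a library. *HSPA1A* was at 25.9 CPM ± 6.31 in T47D, 5.64 ± 1.90 in PC3, 2.06 ± 0.138 in A549 and 0.253 ± 0.139 in HCT116, with the caution on its interval of chromosome 6. *CCT6B* was at 4.66 CPM ± 0.508 in T47D and at 0.122 ± 0.0337 in PC3. Named after its values were seen, *HSPB1* was at 1019 CPM ± 149 in T47D and 145 ± 6.57 in PC3, a ratio of 7.04.

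**Figure D5:**
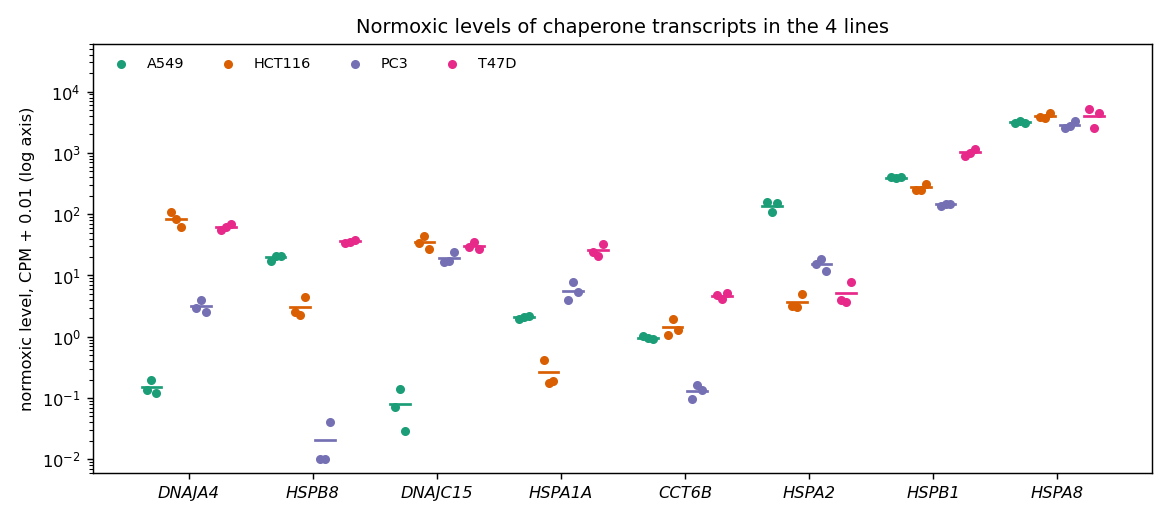
Normoxic level (CPM + 0.01, log axis) of 8 members in the 3 libraries of each line, with a bar at the mean. *DNAJA4* and *DNAJC15* are near the bottom in A549 and *HSPB8* in PC3, while *HSPA8* lies between 2553 and 5199 CPM in all libraries.

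Genes around the family were followed as lists. The list of genes regulated by HSF1 also holds members reported above, so its counts partly repeat theirs. Of the heat shock factors, *HSF1* was upregulated in HCT116 (0.86 ± 0.19, adjusted p = 0.00243) and PC3 (0.31 ± 0.09, adjusted p = 0.0291), and *HSF2* was downregulated in HCT116 (-0.62 ± 0.21, adjusted p = 0.0237), a call lost after the correction for GC content and length (0.22). The *HSF1* call in PC3 was lost after the correction (0.10) and without any hypoxia replicate or without normoxia replicate 1 (adjusted p from 0.0638 to 0.140), and the *HSF2* call held in 2 of 6 such fits, being lost without hypoxia replicate 1 or 3 or normoxia replicate 2 or 3 (adjusted p from 0.0752 to 0.133). Of 20 genes known to be regulated by HSF1, all tested in A549, 1 was upregulated and 11 downregulated there (median -0.40), against 4 and 4 of 18 in HCT116 (0.25), 6 and 2 of 19 in PC3 (0.21) and 0 and 2 of 20 in T47D (-0.14). The shares of all genes upregulated and downregulated were 17.6% and 17.8% in A549, 23.3% and 27.0% in HCT116, 16.6% and 15.7% in PC3 and 6.55% and 6.69% in T47D, and the counts in HCT116 lay near them. The same shares stand beside the 3 lists that follow. Of 18 cytosolic co-chaperones, 10 were downregulated in A549, 6 in HCT116, 2 in PC3 and 3 in T47D, and 3 were upregulated in HCT116. The counts in HCT116 and PC3 were close to or below the shares of all genes. Of 9 chaperones of the endoplasmic reticulum, 5 were upregulated in HCT116, 2 in PC3 and 1 in T47D, and 1 each was downregulated in A549 and HCT116. The upregulated counts in PC3 and T47D were near the shares of all genes. Of 7 mitochondrial chaperones, 5 were downregulated in A549, 2 in HCT116, 3 in PC3 and 1 in T47D, and 2 were upregulated in HCT116. Outside the family, 2 list genes were downregulated in all 4 lines. These were *VBP1*, another prefoldin subunit (-0.54 ± 0.12 in A549, -2.01 ± 0.28 in HCT116, -0.48 ± 0.16 in PC3 and -0.90 ± 0.26 in T47D), and *DNAJC19*, a J-domain protein of the mitochondrial import motor (-0.64 ± 0.16, -2.01 ± 0.29, -0.98 ± 0.17 and -1.04 ± 0.28). In the fit of all libraries *VBP1* was not called in A549 or PC3 (adjusted p = 0.113 and 0.260) nor *DNAJC19* in A549 (0.108). After the correction *VBP1* was called in HCT116 alone of the 4 lines, and its calls in PC3 and T47D were lost in 5 and 4 of 6 fits that left out a library, with -0.23 in PC3 without normoxia replicate 3. *DNAJC19* lost its calls in A549 (-0.18) and T47D (-0.54) after the correction, and in 2 and 4 of 6 such fits.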

How the data were processed

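The deposited files held raw counts per gene for the 24 libraries. Per the study's methods, the authors trimmed reads with TrimGalore 0.3.3, aligned them to GRCh37 with HISAT2 2.05, removed fragments that did not map uniquely with Picard 2.0.1 and made the counts with HTSeq 0.5.4p3 in its strict intersection mode over UCSC genes. The strand setting of the counting is not given in the sources used here, so members that overlap a gene on the opposite strand are uncertain. The study's methods name a ScriptSeq kit or a NEBNext directional kit for poly-A RNA and do not say which kit made which library.

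Each line was fitted separately in edgeR 4.0.16 (R 4.3.3), with filterByExpr, TMM scaling and glmQLFTest, Benjamini-Hochberg adjusted over all genes tested. CPM are counts divided by TMM-scaled library sizes within a line, or over the 12 normoxia libraries for normoxic levels. Line differences were tested in edgeR on all 24 libraries (interaction) or the 12 normoxia libraries. The scripts were tested on simulated data. Gene length, GC content and GRCh37 positions came from GENCODE lifted to that build (canonical transcripts, 19888 genes matched, all 92 members), promoters from RefSeq (75 members matched). Alternatives were DESeq2 1.42.0, RLE factors or total counts for scaling, no filter on low counts, blocking on the replicate number, fitting the 24 libraries together, requiring a fold change over 1.5 and leaving out each library, and the correction for GC content and length was added after seeing the data.

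Same-numbered hypoxic and normoxic libraries deviated together in PC3 (correlations of deviations 0.158, 0.126 and 0.118) and T47D (0.226, 0.326 and 0.304), so there the block is given beside a result it changes. The correlations in A549 and HCT116 were also positive, weakly so for replicate 3 (0.0505 and 0.0890). In those lines the block is given for some results. Counts cover 22698584 to 62850747 per library, and 3 counts correspond to 0.0477 to 0.132 CPM, counting error only. The members, the lists and the rule for named genes (a fixed list, members called the same way in all lines or oppositely in 2, the 5 largest rises and falls per line at 1 CPM or more, the 5 smallest interaction p, the 5 largest normoxic ratios, *HSF1*, *HSF2* and list genes called alike in all lines) were chosen with earlier results of these data known.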

Additional observations from a re-analysis of the deposited data

Results flagged for a closer look

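The effect of hypoxia on 11 named members differed between the 4 lines in the F test of the interaction (edgeR, adjusted over all genes tested). In that test 17 of 82 members passed, close to the 18.3% of all genes. Fewer members passed without replicate 1 or 2 of every group, as given above. Some of the 11 were named for a small interaction p. The interaction was not tested with the correction for GC content and length. The adjusted p was 0.000517 for *DNAJC10*, 0.00302 for *PFDN4*, 0.00577 for *HSPA14*, 0.0066 for *HSPA12A* and 0.0092 for *BAG3*. It was 0.0102 for *DNAJC2*, 0.0104 for *DNAJB4*, 0.0105 for *HSPB11*, 0.0256 for *HSPH1*, 0.0332 for *DNAJB2* and 0.0429 for *HSP90AB1*. For *DNAJC10*, *PFDN4* and *HSPA14* HCT116 lay below the mean of the other lines, by -1.15, -1.98 and -1.40 on the log2 scale. *DNAJB2* moved in 1 direction in all 12 hypoxic libraries, so its difference is one of size.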

How the results depend on the processing

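Counts of upregulated and downregulated members were within 1.5 times those reported in edgeR with RLE factors, with total counts, and without a filter in every line. DESeq2 moved the T47D upregulated count to 5, and a replicate block also to 5. The block gave 4 and 34 in A549, 12 and 29 in HCT116, 12 and 15 in PC3 and 11 downregulated in T47D. Among results named by the rule it ended no call. Of all member calls in PC3 it kept 26 of 27. There it ended the call of *CCT6A* (adjusted p = 0.0507, edgeR) and added that of *PFDN5* (adjusted p = 0.0408). In A549 and HCT116 the same-numbered pairs were also positively correlated (0.253, 0.149 and 0.0505, and 0.344, 0.258 and 0.0890), weakly so for replicate 3. Whether same-numbered samples of any line were handled together is not stated. One fit of all libraries gave 20 downregulated in A549, 2 downregulated in PC3 and 6 upregulated in T47D. A fold change over 1.5 gave 2 upregulated and 16 downregulated in A549 and 6 and 8 in PC3. Scaling by total counts moved the median of all genes to -0.13 in A549 and -0.12 in T47D.

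With the correction for GC content and length, chosen after seeing the data, 6 members were downregulated in PC3 and 6 in T47D. With that correction and the replicate block together, 14 were upregulated in HCT116, 6 downregulated in PC3 and 6 upregulated in T47D. Among genes named by the rule, the direction turned in some results called before or after the correction. These were *DNAJB4* in A549 (0.0749, and 0.0772 with the block) and HCT116 (1.02 in both) and *PFDN4* in PC3 (0.0681, and 0.0710 with the block). The others were *VBP1* in PC3 (0.0915, and 0.0936 with the block) and *HSF2* in HCT116 (0.22, and 0.21 with the block). Direction also turned in results called neither before nor after, such as *HSP90AA1* in HCT116 (0.187). It turned too for members named otherwise, such as *HSPA13* in HCT116 (0.0760). The cause was not tested. Of 106 named calls the correction kept 72, DESeq2 105, RLE factors 104, total counts 101, no filter 105 and one fit of all libraries 79, and the fits that left out a library kept 511 of 636.

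Over the fits that left out a library, upregulated and downregulated counts ranged from 3 to 4 and 23 to 34 in A549, 5 to 10 and 19 to 27 in HCT116, 8 to 16 and 3 to 22 in PC3, and 0 to 5 and 0 to 14 in T47D. The members whose effect differed between lines ranged from 2 to 16 without 1 replicate of every group, 20 with the block, and the normoxic differences from 54 to 58. Members with few counts, such as *DNAJC5G* and *HSPA6*, are limited by depth.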

Other observations

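The share of *HSP90AA1* in the summed CPM of *HSP90AA1* and *HSP90AB1* does not depend on library scaling. It was 59.7%, 63.1% and 57.2% in normoxic A549 libraries and 51.5%, 50.2% and 46.3% in hypoxia. In HCT116 it was 52.8%, 59.7% and 51.7% in normoxia and 38.4%, 33.4% and 38.5% in hypoxia. In T47D it was 65.7%, 65.7% and 57.3% in normoxia and 50.7%, 43.4% and 47% in hypoxia. The groups did not overlap in these 3 lines, while in PC3 the shares of 52.2%, 52.9% and 57.9% in normoxia overlapped those of 52.0%, 52.2% and 53.3% in hypoxia. This ratio was chosen after its values were seen and was not tested.

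All members together held 1.93% to 2.048% of the counts in normoxic A549 and 1.31% to 1.41% in hypoxic A549. The ranges were 2.08% to 2.901% and 1.93% to 2.58% in HCT116, 1.96% to 2.02% and 1.71% to 1.83% in PC3, and 1.52% to 2.13% and 1.32% to 1.58% in T47D. Such a sum mostly follows the most abundant members. In normoxic A549 the 8 TRiC subunits alone held a mean of 5356 CPM of the 19024 CPM of all members.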
